A study of Mus musculus with 24 samples.

Results

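The 10 genes described here act in the lipid output of the sebaceous gland and were chosen by their symbols, Scd1, Scd3, Fasn, Elovl3, Far2, Awat2, Dgat2, Soat1, Plin2 and Mc5r. All 10 were present among the 18368 genes of the expression table. The table held 24 libraries, made from RNA of 12 mice of the outbred CD-1 stock, which were wounded at 7 weeks of age. The labels place all mice in telogen, the resting phase of the hair cycle, and the hair genes of some libraries went against this. Each mouse contributed skin of a single site, so abdomen, back and cheek were each represented by 4 mice. Every mouse gave 1 library of a full-thickness excisional wound on day 3 and 1 library of the unwounded skin beside it, both taken with a 2 mm punch. The cheek received 1 wound and the abdomen or back 2. The controls therefore shared the anaesthesia, the analgesic, the shaving and the neighbouring injury with the wounds.

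Sebaceous glands are attached to hair follicles and secrete by holocrine release, in which a sebocyte fills with lipid, bursts and is replaced from the rim of the gland. Mouse sebum is rich in wax esters, sterol esters and triglycerides. Fatty acids are built by fatty acid synthase, lengthened by elongases and given a double bond by stearoyl-CoA desaturases. Acyl-CoA reductases turn them into fatty alcohols, acyltransferases join the parts into esters, and the esters are stored in droplets coated by perilipins. Mc5r, a melanocortin receptor, is known for its effect on sebum output.

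Values were FPKM, counts of fragments corrected for transcript length and for the size of the library, and they summed to between 490830 and 608888 per library. The number of fragments behind a value is unknown. Keratin genes of the epidermis were abundant in all 6 groups (group means of Krt14 from 1214 FPKM and of Krt10 from 1937 FPKM). So were Krt79 (from 372 FPKM) and Mgst1 (from 234 FPKM), both listed here under sebocyte identity and regulation. Some libraries stood apart. Ckm, the muscle creatine kinase, was at 70.7 and 377 FPKM in unwounded abdomen of mice 2 and 3, against 2572 and 2465 FPKM in mice 1 and 4 and at least 1692 FPKM in unwounded back and cheek. Krt71, a keratin of growing hair follicles, was at 1651 FPKM in unwounded cheek of mouse 4 and at most 27.3 FPKM in the other 23 libraries. The summed level of 8 genes of growing hair follicles was 4934 FPKM in that library, 82.9 FPKM in unwounded back of mouse 2, 37.3 FPKM in unwounded cheek of mouse 3 and at most 10.04 FPKM in the other 9 unwounded libraries. Biopsies held whole skin, so fewer sebocytes and less RNA per sebocyte cannot be told apart.

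Scd1 and Scd3 lie in a cluster of 4 desaturase genes, with Scd2 and Scd4, that spans 204.4 kb of GRCm38 (chr19:44203288-44407709), with Scd3 at chr19:44203288-44244016 and Scd1 at chr19:44394450-44407709. Their coding sequences were 91.5% identical over 1068 aligned bases, with 91 mismatches and an identical run of 185 bases, longer than the 100-base reads. The split of reads between them rests on the differing bases, and their levels are uncertain to that extent. The 90 bases in which they are least alike are shown because reads can be told apart there. The 20 differing bases are in capitals, and positions count from the first coding base (Scd1 from 292 to 381, Scd3 from 304 to 393).
Scd1: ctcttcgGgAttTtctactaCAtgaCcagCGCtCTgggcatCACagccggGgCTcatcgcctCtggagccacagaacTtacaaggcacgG
Scd3: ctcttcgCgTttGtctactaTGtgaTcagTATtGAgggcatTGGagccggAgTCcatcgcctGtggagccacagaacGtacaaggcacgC

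Promoter sequences were taken from RefSeq (GRCm38.p6), and entries of 6 of the 10 genes were used. Mc5r was left out of this step. The 250 bases before the start are shown for Scd3, whose level differed most between sites, and for Soat1 and Far2, which varied together between mice. Capitals mark a match to a searched motif, CCAAT in Soat1 and GGGCGG, on the opposite strand, in Far2.
Scd3 (chr19:44203038-44203287, plus strand): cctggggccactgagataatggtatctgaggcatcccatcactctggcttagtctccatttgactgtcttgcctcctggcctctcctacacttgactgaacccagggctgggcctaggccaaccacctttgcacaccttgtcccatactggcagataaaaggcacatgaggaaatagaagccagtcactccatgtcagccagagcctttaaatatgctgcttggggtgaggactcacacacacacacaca
Soat1 (chr1:156474329-156474578, minus strand): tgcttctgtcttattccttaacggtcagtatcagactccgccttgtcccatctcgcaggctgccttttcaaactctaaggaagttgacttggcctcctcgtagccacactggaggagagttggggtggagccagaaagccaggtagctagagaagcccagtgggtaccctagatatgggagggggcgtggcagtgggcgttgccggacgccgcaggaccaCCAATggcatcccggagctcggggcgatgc
Far2 (chr6:148047166-148047415, plus strand): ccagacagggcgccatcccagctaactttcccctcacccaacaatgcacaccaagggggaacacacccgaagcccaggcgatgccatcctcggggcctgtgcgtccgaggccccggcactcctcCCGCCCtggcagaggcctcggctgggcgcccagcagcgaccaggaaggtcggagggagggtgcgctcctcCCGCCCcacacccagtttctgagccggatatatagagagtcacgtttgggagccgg

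Both strands of these windows were searched for 7 motifs. Each motif was searched in a single spelling, and other spellings of the same element were not tested. A motif reported as absent is therefore absent in that spelling only, and the window may still hold a variant of the element. CCAAT was found in the windows of 4 of the 6 genes (Awat2, Soat1, Fasn and Plin2), and in 33.8% of 32851 promoter windows of the same length. GGGCGG was found in 2 (Awat2 and Far2) and in 32.7% of all windows. TGACCT was found in Plin2 and in 14% of all windows. None of the 6 genes held the letters of the TATA box, TATAAA, which 12.4% of all windows held. The palindromic E-box CACGTG (6.02% of all windows), the sterol regulatory element (0.0731%) and the direct repeat bound by peroxisome proliferator-activated receptors (0.0335%), which contains the complement of TGACCT, were also in none of the 6.

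Across the 24 libraries Scd1 was the most abundant of the 10 genes, with a mean of 632 FPKM (rank 147 of 18368). Means between 103 and 199 FPKM were seen for Far2, Elovl3, Plin2, Scd3 and Dgat2. Fasn had a mean of 46.0 FPKM, Soat1 of 35.03 FPKM and Awat2 of 9.81 FPKM, and Mc5r was lowest with 3.87 FPKM (rank 10346). All 10 genes passed the filter on low values in each fit.

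**Figure D1:**
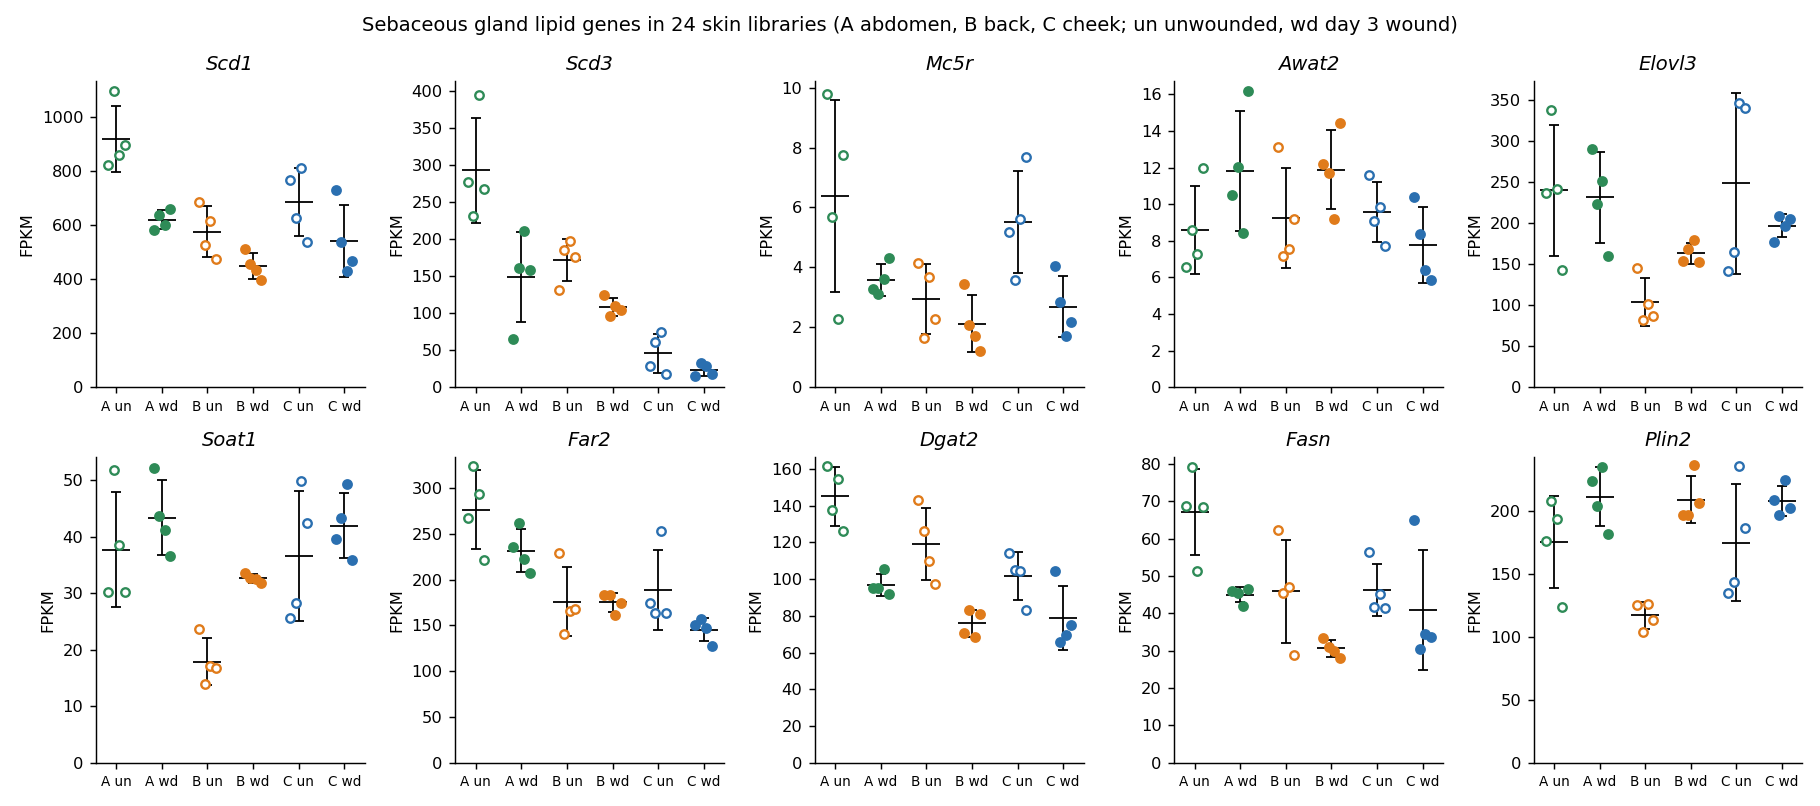
FPKM of the 10 genes by group, with a linear axis from 0 in each panel. Points are libraries (open, unwounded; filled, day 3 wound), and the lines give the mean and SD of 4 mice at abdomen (A, green), back (B, orange) and cheek (C, blue). The cheek libraries of Scd3 lie below all abdomen and back libraries of the same state, and the back wound libraries of Plin2 and Soat1 lie above the back unwounded libraries.

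To ask how the sites differ in homeostasis, the 12 unwounded libraries were compared. Scd3, a desaturase expressed in sebocytes, was lowest in the cheek. It was at 277, 232, 394 and 268 FPKM in abdomen of mice 1 to 4, at 131, 185, 197 and 175 FPKM in back, and at 28.9, 60.8, 74.1 and 18 FPKM in cheek. The 3 sites did not overlap. Mean levels were 6.44 times higher in abdomen than in cheek and 3.78 times higher in back than in cheek. The log2 difference was -2.86 ± 0.38 (SE) for cheek against abdomen (limma adjusted p = 0.00469) and -2.10 ± 0.38 for cheek against back (limma adjusted p = 0.0258). Back against abdomen was -0.75 ± 0.38 and missed the threshold of 0.05 (limma adjusted p = 0.269), although exact permutation of the FPKM values gave p = 0.0286 in each pair of sites, the smallest that 4 against 4 allows.

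The call for Scd3 between cheek and abdomen was kept when any single mouse was left out, and it was lost without abdomen mice 2 and 3 together, the libraries with little Ckm (log2 difference -2.78, limma adjusted p = 0.0606). The call between cheek and back was lost in limma without back mouse 1, 2, 3 or 4 (adjusted p = 0.0521, 0.0783, 0.0826 and 0.0624) or cheek mouse 1 (adjusted p = 0.0600). Without cheek mice 3 and 4, the unwounded cheek libraries with the most hair keratin, both calls were kept, at -2.76 for abdomen and -2.01 for back (limma adjusted p = 0.00170 and 0.0137).

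Scd1, the main desaturase of skin, was at 821, 1098, 858 and 898 FPKM in unwounded abdomen, at 686, 526, 616 and 473 FPKM in back and at 767, 625, 813 and 537 FPKM in cheek. Every abdomen library was above every back and cheek library, while back and cheek overlapped. Scd1 was lower in back than in abdomen (log2 difference -0.68 ± 0.16, limma adjusted p = 0.0462) and did not pass for cheek against abdomen (-0.43 ± 0.16, limma adjusted p = 0.177) or cheek against back (0.25 ± 0.16, limma adjusted p = 0.384). The median gene differed by -0.12 between back and abdomen and by 0.14 between cheek and back on the same scale, and relative to the median gene Scd1 was -0.56 in back against abdomen. Scd2, a further desaturase, averaged between 34.7 and 50.03 FPKM in unwounded skin and showed no lower level in cheek (50.03 ± 21.1 FPKM, SD, n = 4). Scd4 averaged 1.24 FPKM or less.

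In unwounded abdomen Scd3 made up 24.3% ± 5.82 (SD, n = 4) of the summed FPKM of Scd1 and Scd3, compared with 23.3% ± 4.98 for back and 6.02% ± 3.00 for cheek. In cheek it lay between 3.24% and 8.87%, below the lowest share at the other sites, 16.1% in a back library. Exact permutation gave p = 0.0286 for cheek against each other site and p = 0.857 for back against abdomen.

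**Figure D2:**
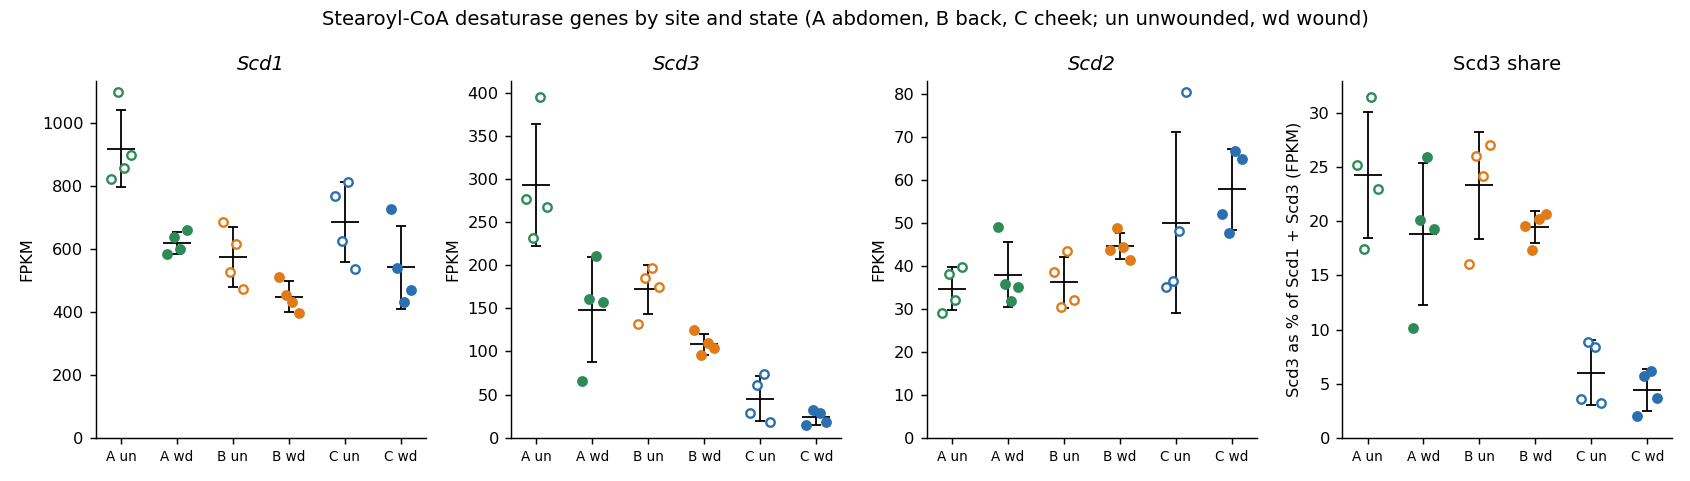
FPKM of Scd1, Scd3 and Scd2, and Scd3 as a percentage of the summed FPKM of Scd1 and Scd3, by group (A abdomen, B back, C cheek; un, unwounded; wd, wound). Points are libraries and lines are the mean and SD of 4 mice. The share of Scd3 is below 9% in all cheek libraries and above 10% in all others, whereas Scd2 is not lower in cheek.

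Among the genes of ester synthesis, Soat1, which esterifies cholesterol, was lowest in the back. It was at 30.1, 51.8, 38.5 and 30.3 FPKM in unwounded abdomen, at 23.7, 13.9, 17.2 and 16.7 FPKM in back and at 25.7, 28.3, 49.8 and 42.4 FPKM in cheek. Back lay below both other sites, which overlapped each other. The log2 difference between back and abdomen was -1.05 ± 0.24 (limma adjusted p = 0.0397), or -0.93 relative to the median gene, and cheek against back missed the threshold (0.99 ± 0.24, limma adjusted p = 0.0768).

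Elovl3, an elongase of very long fatty acids in sebaceous gland and brown fat, averaged 239 ± 79.8, 104 ± 28.7 and 248 ± 110 FPKM (SD, n = 4) in abdomen, back and cheek, and back differed from abdomen by -1.18 ± 0.34 on the log2 scale (limma adjusted p = 0.0875). Plin2, a droplet coat protein, averaged 175 ± 36.6, 117 ± 10.7 and 175 ± 46.3 FPKM, with no pair of sites past the threshold. Both genes were thus measured at their lowest mean in back, without a call.

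Far2, which makes fatty alcohols, averaged 277 ± 43.5, 176 ± 37.4 and 189 ± 43.4 FPKM, and its smallest limma adjusted p was 0.0730, for back against abdomen. Dgat2, a diacylglycerol acyltransferase, averaged 145 ± 16.01, 119 ± 19.8 and 102 ± 13.05 FPKM. Cheek did not overlap with abdomen for Dgat2, yet the limma adjusted p was 0.0686. Fasn averaged 67.1 ± 11.5 FPKM in abdomen and 45.9 ± 13.7 and 46.2 ± 7.05 FPKM in back and cheek. Awat2, a wax synthase, averaged between 8.60 and 9.57 FPKM at the 3 sites, and its site differences were at most 0.17 in size on the log2 scale (SE 0.21). Mc5r averaged 6.38 ± 3.20, 2.93 ± 1.17 and 5.51 ± 1.69 FPKM, and its groups overlapped in every pair.

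In all, 2 of the 10 genes were called between back and abdomen (Scd1 and Soat1), against 2.67% of all genes tested. Scd3 was the only member called between cheek and abdomen, against 2.57% of all genes, and between cheek and back, against 1.05%. For back against abdomen 9 of the 10 log2 differences were below 0, with a median of -0.67 against -0.12 for all genes. For cheek against abdomen 8 were below 0 (median -0.26 against 0.03), and for cheek against back 2 (median 0.17 against 0.14). Libraries of the groups did not overlap for 3 members in each pair, against 13.3%, 10.6% and 14.6% of all genes. These comparisons share their libraries.

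The calls of Scd1 and Soat1 between back and abdomen were not stable. Both were lost with no filter on low values (limma adjusted p = 0.0600 and 0.0536), median-ratio scaling (0.0986 and 0.0591) and quantile normalization (0.0771 and 0.0573). Scd1 lost its call when any abdomen or back mouse but back mouse 1 was left out, or cheek mouse 1 or 2, with limma adjusted p from 0.0537 (abdomen mouse 1) to 0.162 (abdomen mouse 2). Soat1 lost its call without abdomen mouse 2 or 3 (limma adjusted p = 0.129 and 0.102) or back mouse 2, 3 or 4 (0.123, 0.0931 and 0.0772). Without abdomen mice 2 and 3 together the limma adjusted p was 0.388 for Scd1 and 0.398 for Soat1. Summed levels of 8 muscle genes ranged from 483 to 14547 FPKM in unwounded abdomen, 13723 to 21560.5 FPKM in back and 11216 to 22726 FPKM in cheek, all 8 genes being detected in each group, and their part in these differences was not tested.

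To ask how the genes respond to injury, each wound was set against the unwounded skin of the same mouse, with the study's threshold of an adjusted p under 0.001. Plin2 rose in back wounds and Dgat2 fell there. These were the 2 members called in back, against 14.4% of all genes. In abdomen and cheek limma called 0 of the 10 (4.96% and 8.69% of all genes), while 6 and 7 members had an unadjusted p under 0.05, as did 44.3% and 46.4% of all genes.

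Plin2 was at 125, 103, 126 and 114 FPKM in unwounded back and at 197, 196, 236 and 206 FPKM in back wounds of mice 1 to 4. It was higher in the wound in 4 of 4 mice and the groups did not overlap. The mean was 1.79 times higher, with a log2 difference of 0.83 ± 0.12 (SE, limma adjusted p = 0.000127). In abdomen the difference was 0.29 ± 0.12 (limma adjusted p = 0.0760, 3 of 4 mice higher) and in cheek 0.28 ± 0.12 (limma adjusted p = 0.0734, 3 of 4). The 3 groups of wounds averaged 208 to 211 FPKM. Without back mouse 2, 3 or 4 the limma adjusted p in back was 0.00141, 0.00123 or 0.00112.

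Dgat2 was at 143, 126, 109.9 and 97.2 FPKM in unwounded back and at 70.5, 83.4, 68.5 and 80.9 FPKM in back wounds. Each wound was lower than its own control and the groups did not overlap. The log2 difference was -0.64 ± 0.12 (limma adjusted p = 0.000982), close to the threshold. The call was lost with a pseudocount of 1 FPKM (limma adjusted p = 0.001005), no filter (0.00166), moderation without trend and robustness (0.00153) or the 8 back libraries alone (0.00217). It was lost without back mouse 1, 2 or 3 (0.00711, 0.00535 and 0.00626), any abdomen mouse (0.00103 to 0.00179) or cheek mouse 1 or 3 (0.00124 and 0.00130). Dgat2 was also lower in all 4 abdomen mice (-0.58 ± 0.12, limma adjusted p = 0.00345) and all 4 cheek mice (-0.38 ± 0.12, limma adjusted p = 0.0244).

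The synthesis genes were measured lower in most wounds. Scd1 was lower in the wound in 12 of 12 mice, with log2 differences of -0.56 ± 0.12 in abdomen (limma adjusted p = 0.00506), -0.35 ± 0.12 in back (0.0354) and -0.35 ± 0.12 in cheek (0.0422). In abdomen Scd1 was at 583, 637, 600.3 and 661 FPKM in wounds, below every unwounded library. Scd3 was lower in 11 of 12 mice, with -1.07 ± 0.25 in abdomen (limma adjusted p = 0.00828), -0.65 ± 0.25 in back (0.0522) and -0.79 ± 0.25 in cheek (0.0297). Abdomen mouse 1 had the largest Scd3 difference, -2.07, and without it the abdomen value was -0.73. Fasn was lower in 11 of 12 mice and had -0.55 ± 0.13 in abdomen (limma adjusted p = 0.00794) and -0.53 ± 0.13 in back (0.00650), while cheek had -0.23 ± 0.13 and did not pass at 0.05 (0.193).

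Soat1 and Elovl3 were measured higher in back wounds than in unwounded back, without a call. Soat1 was at 33.7, 32.7, 32.6 and 31.8 FPKM in back wounds, above every unwounded back library, and its log2 difference of 0.88 ± 0.17 narrowly missed the threshold (limma adjusted p = 0.00145). Elovl3 was at 145, 81.9, 101 and 86.5 FPKM in unwounded back and at 153, 168, 179 and 153 FPKM in back wounds, without overlap (0.69 ± 0.22, limma adjusted p = 0.0229). In abdomen and cheek neither gene moved by more than 0.24 on the log2 scale (limma adjusted p from 0.298 to 0.952).

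Neither the wax ester genes Awat2 and Far2 nor Mc5r passed the threshold in any wound. Awat2 was higher in 4 of 4 abdomen wounds (0.43 ± 0.13, limma adjusted p = 0.0195) and in 3 of 4 back wounds (0.37 ± 0.13, 0.0304), and lower in 4 of 4 cheek wounds (-0.30 ± 0.13, 0.0746). Far2 had -0.25 ± 0.12 in abdomen wounds, 0.02 ± 0.12 in back wounds and -0.36 ± 0.12 in cheek wounds on the log2 scale (limma adjusted p = 0.140, 0.927 and 0.0375). Mc5r was lower in the wound in 10 of 12 mice, with the largest value in cheek (-0.93 ± 0.31, limma adjusted p = 0.0376). Exact sign changes over 4 mice cannot give a p below 0.125, which was reached wherever 4 of 4 mice moved the same way.

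**Figure D3:**
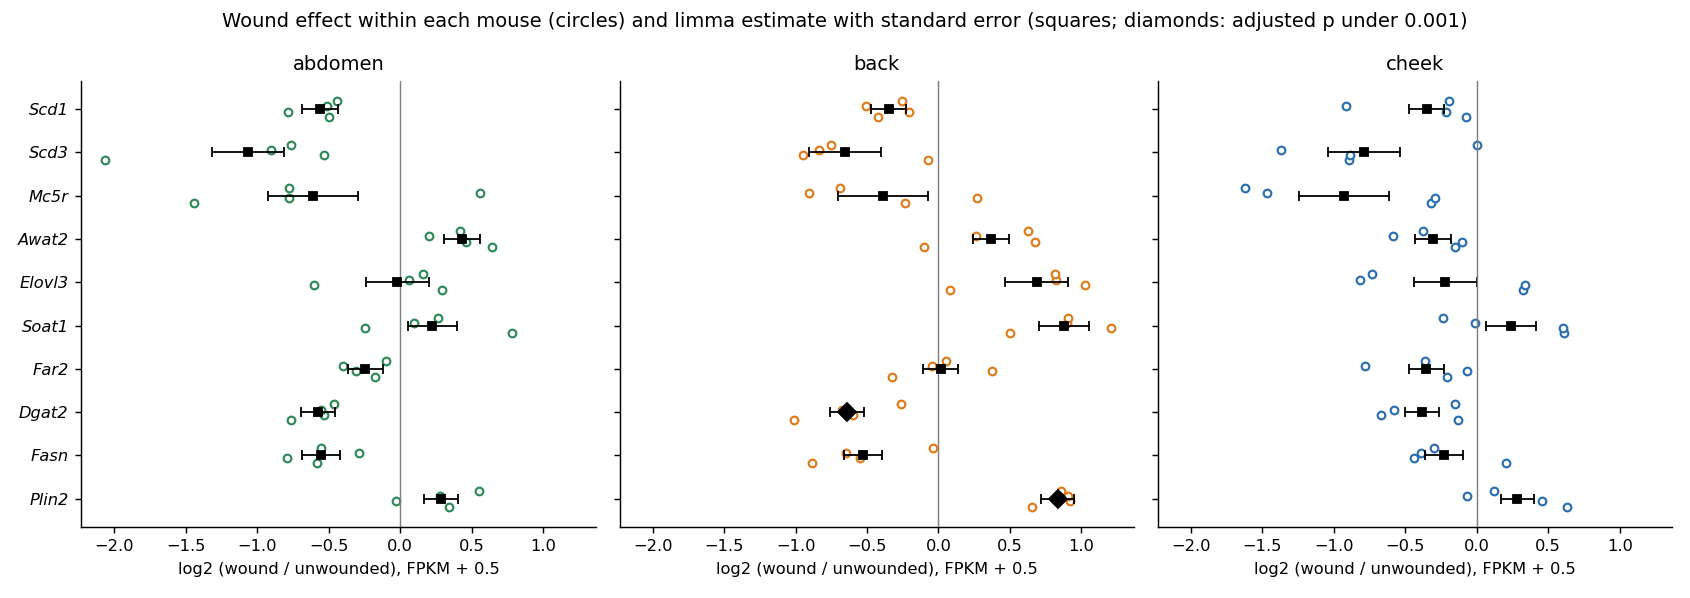
Log2 ratio of wound to unwounded FPKM (after adding 0.5 FPKM) for the 10 genes at each site. Circles are single mice, and squares or diamonds give the limma estimate with its standard error, diamonds marking an adjusted p under 0.001. Diamonds stand only in back, for Plin2 at 0.83 and Dgat2 at -0.64.

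At a threshold of 0.05, 5 members passed in abdomen, 7 in back and 5 in cheek, against 32.9%, 45.9% and 36.6% of all genes. The median log2 differences of the 10 genes were -0.40, -0.17 and -0.33 at abdomen, back and cheek, against -0.01, 0.07 and 0.01 for all genes tested. Wound and control libraries did not overlap for 4, 5 and 1 members, against 24.4%, 40.4% and 31.7% of all genes.

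Whether the wound response differed between sites was tested directly with a moderated F test. It called 0 of the 10 members and 0.0208% of all genes, and 4 members had an unadjusted p under 0.05, as did 12.9% of all genes. These were Awat2 (F = 10.5, unadjusted p = 0.00200, limma adjusted p = 0.228), Plin2 (F = 7.34, limma adjusted p = 0.247), Elovl3 (F = 4.71, limma adjusted p = 0.335) and Soat1 (F = 4.64, limma adjusted p = 0.337). The wound difference of Plin2 was 0.55 ± 0.17 larger in back than in abdomen on the log2 scale, and that of Awat2 was 0.74 ± 0.18 smaller in cheek than in abdomen. So the calls of Plin2 and Dgat2 in back alone do not show a response particular to back.

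Between the wounds of the 3 sites Scd3 was again lowest in cheek. It was at 65.6, 160, 211 and 158 FPKM in abdomen wounds, at 125, 95.7, 109.8 and 103 FPKM in back wounds and at 15.3, 32.6, 28.3 and 18.04 FPKM in cheek wounds. Cheek lay below both other sites without overlap, and abdomen and back overlapped. The log2 difference was -2.58 ± 0.33 for cheek against abdomen (limma adjusted p = 0.00277) and -2.24 ± 0.33 for cheek against back (limma adjusted p = 0.0115). The first was lost without abdomen mice 2 and 3 together (-2.15, limma adjusted p = 0.0526) and the second without cheek mice 3 and 4 together (-2.24, limma adjusted p = 0.0868), but neither when a single mouse was left out. The share of Scd3 was 18.9% ± 6.55 (SD, n = 4) in abdomen wounds, 19.5% ± 1.48 in back wounds and 4.41% ± 1.90 in cheek wounds, with an exact permutation p = 0.0286 for cheek against each other site. These wounds and the unwounded libraries came from the same mice.

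Far2 was at 236, 262, 223 and 207 FPKM in abdomen wounds, at 183, 183, 161 and 175 FPKM in back wounds and at 150.3, 157, 147 and 127 FPKM in cheek wounds. The 3 sites did not overlap. Cheek against abdomen was -0.67 ± 0.09 (limma adjusted p = 0.00225), a mean 1.59 times higher in abdomen, while back against abdomen narrowly missed the threshold (-0.40 ± 0.09, limma adjusted p = 0.0525) and cheek against back missed it (-0.27 ± 0.09, limma adjusted p = 0.0938).

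Thus 2 members, Scd3 and Far2, were called between cheek and abdomen wounds, against 10.8% of all genes. Scd3 alone was called between cheek and back wounds, against 2.5% of all genes. Between back and abdomen wounds limma called 0 members and 1.27% of all genes, with 7 members and 16.5% of all genes at an unadjusted p under 0.05. Wounds did not overlap for 5 members between back and abdomen (Scd1, Soat1, Far2, Dgat2 and Fasn, all lower in back), 2 between cheek and abdomen (Scd3 and Far2) and 3 between cheek and back (Scd3, Soat1 and Far2), against 9.16%, 19% and 21.3% of all genes. The median difference of the members was -0.40 for back against abdomen wounds, -0.27 for cheek against abdomen and 0.14 for cheek against back, where that of all genes was -0.03, 0.07 and 0.09. Plin2 averaged within 0.02 of equality on the log2 scale in every pair of wounds (SE 0.09).

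Other genes of the same pathways were followed as lists. The 12 genes of sebocyte identity and regulation had median log2 differences of -0.34, -0.07 and -0.37 in abdomen, back and cheek wounds. Mgst1, a glutathione transferase abundant in sebocytes, fell in abdomen (-0.59 ± 0.09, limma adjusted p = 0.000753) and cheek wounds (-0.61 ± 0.09, limma adjusted p = 0.000400). Lrig1, a stem cell gene of the follicle junction that is named after its values were seen, fell in cheek wounds (-0.59). Krt79, the most abundant of the list, had -0.02, 0.32 and 0.05 and was called nowhere.

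Between unwounded sites Mgst1 was lower in back (-0.70 ± 0.15, limma adjusted p = 0.0307) and in cheek (-0.65 ± 0.15, 0.0429) than in abdomen, and Cidea, a droplet fusion protein, was lower in back (-1.13 ± 0.17, limma adjusted p = 0.00644). Other list genes were called 0 times in those comparisons.

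Of 18 genes of fatty acid synthesis, elongation and desaturation, 8 were lower in unwounded back than in abdomen and 0 higher (2.67% of all genes were called), with a list median of -0.56 against -0.12 for all genes. They included Elovl4, an elongase of ultra-long fatty acids (-0.90 ± 0.17, limma adjusted p = 0.0163), Hsd17b12, a ketoacyl-CoA reductase of elongation (-1.03, limma adjusted p = 0.00532), and Fabp5, an epidermal fatty acid binding protein (-1.08 ± 0.23, limma adjusted p = 0.0287). Between cheek and abdomen 3 were lower (Acly, Elovl1 and Elovl5, named after their values were seen) and 0 higher, where 2.57% of all genes were called. Tecr, an enoyl-CoA reductase, was among the 4 most abundant and was called in neither comparison. Calls of list genes, here and in the other lists, were not recomputed with mice left out or with other processing. Without abdomen mice 2 and 3 together, the share of all genes called between unwounded back and abdomen fell from 2.67% to 0.274%.

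In wounds Fabp5 rose at the 3 sites, by 1.16 in abdomen, 2.33 in back and 1.70 in cheek on the log2 scale (limma adjusted p = 0.000355, 9.18e-07 and 1.17e-05). Acss2, which makes acetyl-CoA from acetate and is named after its values were seen, fell in abdomen and cheek (-0.79 and -0.82). The other 16 genes of the list were not called in any wound.

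Of 11 tested genes of wax, sterol ester and triglyceride synthesis, Gpam, the first enzyme of glycerolipid synthesis, fell in abdomen, back and cheek wounds (-0.56, -0.78 and -0.75). Lpin1, a phosphatidate phosphatase, fell in back and cheek wounds (-1.27 and -0.87), and its relative Lpin2 rose in back wounds (0.71). These 3 genes are named after their values were seen. Awat1, a wax synthase with a mean of 113 FPKM, was lower in unwounded back than in abdomen (-1.30 ± 0.29, limma adjusted p = 0.0357) and had -0.27, 0.28 and -0.52 in wounds, without a call. Dgat1, Agpat3 and Agpat2 were called in no wound.

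Of 8 genes of droplet coats and lipolysis, Fitm2 fell in back and cheek wounds, Pnpla2, the adipose triglyceride lipase, in back wounds (-0.96, limma adjusted p = 0.000264) and Plin5 in cheek wounds (-1.49). Fitm2 and Plin5 are named after their values were seen. Mgll, a monoglyceride lipase, was lower in unwounded back than in abdomen (-0.92, limma adjusted p = 0.0424), and it, Bscl2 and Abhd5 were not called in wounds. Of the melanocortin system 4 genes were tested besides Mc5r, and Mrap, a receptor accessory protein, fell in back wounds (-1.78, limma adjusted p = 0.000473) from 18.1 to 4.69 FPKM. Mc3r was listed at 0 in all libraries of 5 groups and Mc4r in those of 2.

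**Figure D4:**
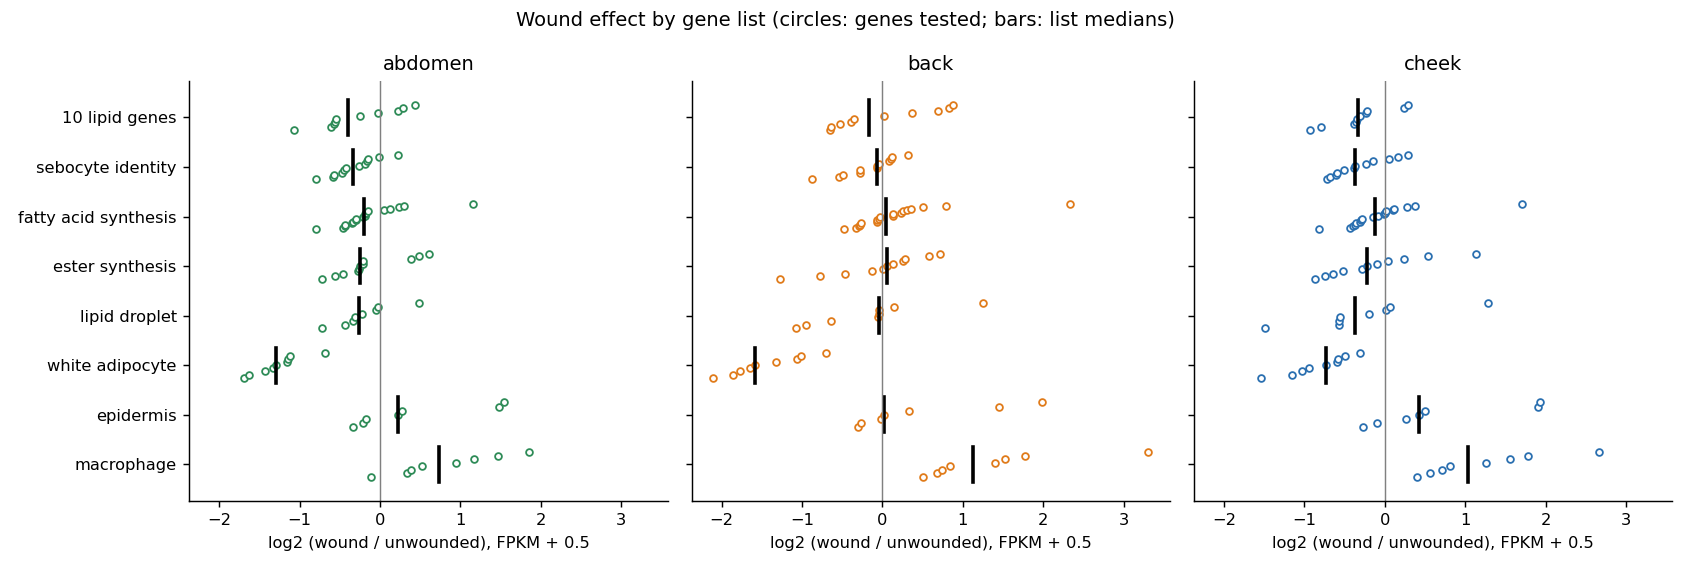
Limma log2 difference between wound and unwounded skin for the 10 genes and for other gene lists, by site. Circles are genes tested and bars are list medians. White adipocyte genes lie below 0 at every site, with medians of -1.30, -1.59 and -0.73, and most macrophage genes lie above 0.

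Genes of other cell types also differed between wounds and controls. The summed level of 9 white adipocyte genes ranged from 1088 to 1889 FPKM in unwounded abdomen and 313 to 576 FPKM in abdomen wounds, from 1077 to 1939 and 329 to 483 FPKM in back, and from 485 to 1643 and 303 to 852 FPKM in cheek. Of these 9 genes, 2, 6 and 1 fell at the 3 sites, where 4.96%, 14.4% and 8.69% of all genes were called, so that the cheek count is near the background, and Cfd, the most abundant, fell in back wounds (1017 to 236 FPKM). Adipocytes also express Dgat2, Scd1, Fasn, Gpam and Mrap. Of 8 macrophage genes, 3, 6 and 5 rose, and their sum went from 975 to 1240 FPKM in unwounded abdomen to 1522 to 2769 FPKM in wounds, from 794 to 1534 to 2586 to 2913 FPKM in back, and from 716 to 1387 to 1704 to 2773 FPKM in cheek. Macrophages also express Plin2 and Soat1. No gene of either list was at 0 in all 4 libraries of a group, and the part of these cells in the changes of Plin2 and Dgat2 was not tested.

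Of 7 neutrophil genes 5, 6 and 6 rose, led by S100a9 and S100a8, against 4.96%, 14.4% and 8.69% of all genes called. Of 7 epidermal genes Krt14 and Krt1 rose at every site and the other 5 were not called, with list medians of 0.22, 0.02 and 0.42 and 3, 3 and 2 genes below 0 at abdomen, back and cheek. Of the 8 muscle genes and the 8 genes of growing hair follicles 0 were called in any wound by limma. At an adjusted p under 0.05, 6 muscle genes passed in back and 3 follicle genes in cheek, against 45.9% and 36.6% of all genes. All 8 muscle genes were measured lower in wounds at each site, with medians of -0.63, -2.23 and -1.56 in abdomen, back and cheek. Their sum was 3042 to 4388 FPKM in back wounds and 4758 to 6717 FPKM in cheek wounds, below every unwounded library there. Abdomen wounds, at 1660 to 5091 FPKM, overlapped with their controls. The part of muscle in the wound changes of the members was not tested. Ucp1, the defining gene of brown fat, averaged 0.05 FPKM over the 24 libraries. Cox8b, a respiratory chain subunit of muscle and brown fat, averaged 124.8 FPKM and was called in no comparison. It carried most of the summed level of 4 brown fat genes. In unwounded skin that sum was 14.6 to 158 FPKM in abdomen, 171.6 to 354 FPKM in back and 181 to 400.9 FPKM in cheek. Dio2, a deiodinase, was higher in unwounded cheek than in abdomen and back (1.58 and 1.71, limma adjusted p = 0.0163 and 0.0140). The part of these genes in the level of Elovl3 was not tested. Further, 6 genes of salivary or lacrimal glands summed to at most 26.5 FPKM and 6 mammary genes to at most 15.5 FPKM in any library.

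The mice of a group differed from each other in a structured way. After the mean of each group was subtracted, log2 levels of Elovl3, Soat1, Far2 and Plin2 correlated over the 24 libraries with Pearson's r from 0.639 to 0.879 (Spearman's rho from 0.421 to 0.817), and those of Scd1, Dgat2 and Fasn from 0.515 to 0.774 (rho from 0.346 to 0.740). Between the sets r ranged from -0.129 to 0.530. Both sets were chosen after the values were seen, and the libraries share their mice and processing. Without the 2 libraries farthest from the median of the first gene of a pair r was 0.532 to 0.851 and 0.239 to 0.637. The first set held in the 12 unwounded libraries (0.727 to 0.922) and less in the 12 wound libraries (-0.0831 to 0.696). In the second set r was 0.491 to 0.733 in the unwounded and 0.541 to 0.823 in the wound libraries.

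The first set also varied with the makeup of the biopsies. Its genes had r from 0.548 to 0.826 with Krt79, from 0.368 to 0.616 with Krt14 and from -0.704 to -0.510 with Ckm over the same 24 libraries. How far the share of muscle in a punch set these values was not tested. Of the second set, Dgat2 had r = 0.669 with Adipoq, an adipocyte hormone, Scd1 had 0.533 and Fasn 0.371. Mgst1, which was listed with Krt79 under sebocyte identity and regulation, did not separate the sets. Its r was 0.186 to 0.520 with the first set and 0.248 to 0.561 with the second.

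**Figure D5:**
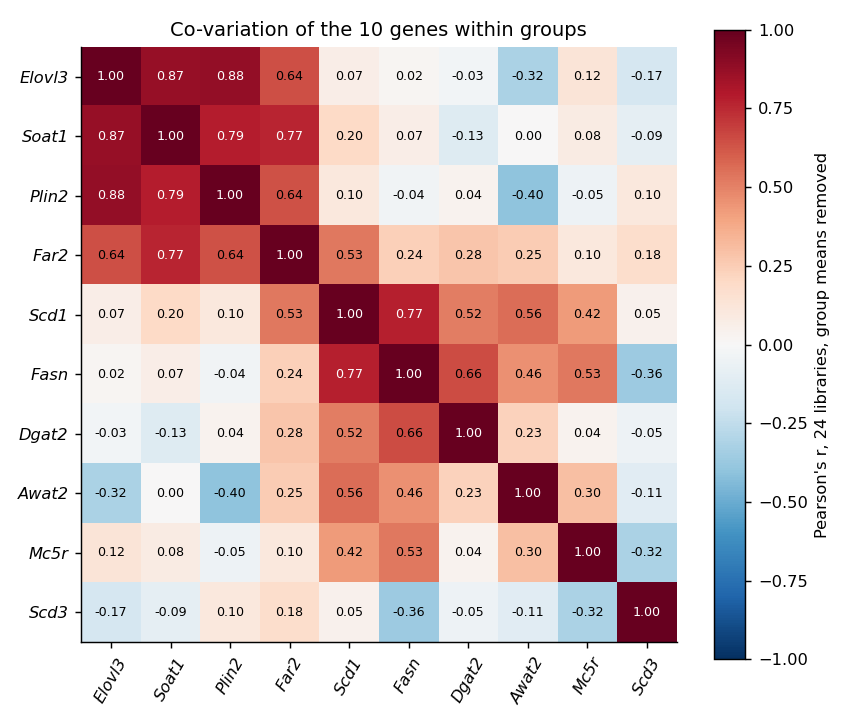
Pearson's r between the 10 genes over 24 libraries, on the log2(FPKM + 0.5) scale with the mean of each group subtracted. Elovl3, Soat1, Plin2 and Far2 form a block between 0.64 and 0.88 at the upper left, and Scd3 has r of 0.18 or less with every other gene.

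The genes most like each member by this measure, out of all other genes tested, were as follows. Fasn was most like Acaca, the carboxylase that supplies its substrate (r = 0.848), and Pcx (0.830). Dgat2 was most like Agpat2 (0.858), Mrap (0.857) and Gpt2 (0.856). Elovl3 was most like Sgpp2 (0.946), Plbd1 (0.926) and Aldh3b2 (0.919), Soat1 like Spry3 (0.897) and Kctd11 (0.895), and Far2 like Cers4, a ceramide synthase (0.858). Plin2 was most like Erg28 (0.918) and Hilpda, a hypoxia-induced droplet protein (0.879). For Scd3 the nearest were Cdh13 (0.840) and Hoxa5 (0.772), for Scd1 Grap2 (0.840) and Phldb1 (0.830), for Awat2 Enox1 (0.835), and for Mc5r Zfp84 (0.748). Some of these genes were low. Spry3 averaged 0.446 FPKM over the 24 libraries, below the filter value of 0.5 FPKM, and Grap2, Enox1 and Zfp84 averaged 1.91, 2.18 and 2.75 FPKM.

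Some genes overlap others in the RefSeq annotation, and strand-specific counting is not given in the sources used here. Scd3 overlaps Pkd2l1, Awat2 (chrX:100402221-100494278) Otud6a, Elovl3 (chr19:46131897-46135694) Pitx3, Far2 (chr6:148047416-148182758) Far2os1 and Ergic2, and Plin2 (chr4:86626910-86670217) the pseudogene Gm12551. Reads in the shared parts could belong to either gene. Soat1 (chr1:156428108-156474328), Dgat2 (chr7:99153663-99182713), Fasn (chr11:120805958-120825166) and Scd1 have no overlapping gene there.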

How the data were processed

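The authors sequenced total RNA of whole-skin punches as paired-end 100-base reads (BGISEQ-500). The submitters' processing notes name HISAT2, Bowtie2 2.2.5 and RSEM 1.2.12, with the mm10 build, for the deposited FPKM values, which are rounded to 2 decimals and carry no counts. Depth and the strandedness of counting are not given in the sources used here. A second deposited table, with the authors' own comparisons (log2 ratios and adjusted p), was not used. Every column of FPKM values matched a sample (0 columns left over).

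Genes that reached 0.5 FPKM in 4 or more of the fitted libraries were analysed on the log2(FPKM + 0.5) scale with limma 3.58.1 (trended, robust moderation, statmod 1.5.0, R 4.3.3) and Benjamini-Hochberg adjustment over all 14423 (wounds), 13956 (unwounded sites) or 14023 (wound sites) genes. Fold changes on this scale understate changes of low genes. Wound effects were fitted over 24 libraries with a term for each of 12 mice (threshold 0.001), and sites within 12 libraries of a state (threshold 0.05). Single values used two-sided exact permutation tests, 4 against 4 (smallest p 0.0286) or sign changes of 4 mice (smallest p 0.125). The scripts were tested on simulated data.

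Wounds and controls were paired because they came from the same mouse. Across genes, the deviations of both libraries of a mouse from their group means had an average correlation of 0.322, 0.348 and 0.281 (abdomen, back, cheek), lowest -0.0299. Between mice the averages were -0.108, -0.116 and -0.0958. Deviations from a group mean cancel within the group, so these largely follow from the same-mouse values and are no separate comparison.

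The 10 genes and all gene lists were chosen with earlier results of these data known, so their counts are descriptions. The genes named from a list are its 4 most abundant over the 24 libraries, and most others are said to be chosen after their values were seen. Exceptions are Scd2 and Scd4, which lie in the cluster with Scd1 and Scd3. Mc3r and Mc4r, undetected in every library of some groups, are exceptions too. The genes most like a member are those with the largest Pearson's r over 24 libraries after subtraction of group means. Asip, Flg, Csn2 and Xist, of the lists, are not analysed here. The calls of a further gene of the sebocyte list are not reported here.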

Additional observations from a re-analysis of the deposited data

Results flagged for a closer look

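In each of 60 groups of 4 libraries (10 genes in 6 groups) the distance of the highest and the lowest library from its neighbour was compared with the range of the group, and 2 groups had a library that stood apart by more than Dixon's 95% critical value for 4 samples. Chance gives about 1 in 20 such groups. Far2 was at 253.67 FPKM in unwounded cheek of mouse 3, where the other 3 mice had 163.98 to 174.03 FPKM (ratio 0.888). Fasn was at 65.05 FPKM in the cheek wound of mouse 1, where the other 3 wounds had 30.61 to 34.49 FPKM (ratio 0.887), and this mouse was the only 1 of 12 in which Fasn was higher in the wound.

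Awat2 moved in opposite directions at 2 sites, since every abdomen wound was higher than its control (mean log2 difference 0.43) and every cheek wound was lower (-0.30). The test of a difference between the 3 wound effects gave a limma adjusted p of 0.228 over all genes.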

How the results depend on the processing

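Of the values recomputed under an alternative, 1979 kept direction and side of the threshold, 44 passed it newly, 43 no longer passed and 54 changed sign. The calls of Scd3 between cheek and abdomen in both states, of Scd3 between cheek and back wounds and of Far2 between cheek and abdomen wounds were kept in all planned settings and with any single mouse left out. The cause of the shifts below was not tested.

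Members called in back wounds were 1 with a pseudocount of 1 FPKM, no filter, no trend or robust moderation, or without abdomen mice 2 and 3 together. The share of all genes called there was 14.2%, 9.94%, 13.2% and 14% in these settings, against 14.4% in the main fit. At a threshold of 0.05 abdomen, back and cheek wounds had 5, 7 and 5, against 32.9%, 45.9% and 36.6% of all genes. Unwounded back against abdomen had 0 with no filter, median-ratio scaling, quantile normalization or without abdomen mice 2 and 3, 5 with all 24 libraries and mouse as a random effect, and 4 without cheek mice 3 and 4. The share of all genes called in that pair moved with them, from 2.67% to 10.4% and 4.27% in the last 2 settings and to between 0.274% and 1.98% in the settings with 0. Unwounded cheek against abdomen had 2 with quantile normalization, 3 with all 24 libraries and 0 without abdomen mice 2 and 3, and cheek against back had 4 with all 24 libraries. The share of all genes called went from 2.57% to 3.04%, 8.82% and 0.238% for cheek against abdomen. For cheek against back it went from 1.05% to 7.18%. Between wounds, cheek against back had 2 with median-ratio scaling and 0 without cheek mice 3 and 4, back against abdomen had 1 with quantile normalization, and cheek against abdomen had 1 without abdomen mice 2 and 3. The share of all genes went from 2.5% to 1.3% and 0.258% for cheek against back. It went from 1.27% to 1.47% for back against abdomen and from 10.8% to 0.431% for cheek against abdomen. The settings that leave out a pair of mice were chosen after seeing the data.

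Mouse numbers are shared by the sites but do not pair their mice (r from -0.372 to 0.220 between same-numbered libraries). With the replicate block by mouse number 0 members were called between unwounded back and abdomen and 2 between cheek and abdomen. Of all genes, 1.48% and 1.73% were called in these pairs. With no replicate block for the mouse, wounds had 0, 2 and 0 calls at abdomen, back and cheek, against 4.67%, 14.4% and 9.29% of all genes.

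Leaving out each mouse in turn gave 0 to 1, 0 to 3 and 0 to 0 members called in abdomen, back and cheek wounds, 0 to 4, 1 to 2 and 0 to 1 in unwounded back against abdomen, cheek against abdomen and cheek against back, 0 to 2, 2 to 4 and 1 to 1 in the same pairs of wounds, and 0 to 0 for the test of differing wound effects. Over the same runs the share of all genes called was 2.04 to 5.79%, 6.33 to 16.1% and 3.78 to 10.5% in wounds, 0.783 to 3.9%, 0.583 to 4.98% and 0.524 to 1.11% between unwounded sites, and 0.157 to 2.04%, 3.64 to 12.2% and 0.343 to 7.84% between wounds. For the test of differing wound effects the share was 0.00695 to 2.19%.

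Signs changed for values near 0. Median-ratio scaling gave -0.055 for Far2 in back wounds, -0.010 for Elovl3 in unwounded cheek against abdomen, -0.067, -0.045 and -0.094 for Awat2, Far2 and Fasn in unwounded cheek against back, 0.018 for Plin2 in back against abdomen wounds and -0.070 for Dgat2 in cheek against back wounds. Quantile normalization gave -0.15 for Far2 in back wounds, -0.042 for Elovl3 in unwounded cheek against abdomen, -0.083 and -0.033 for Awat2 and Fasn in unwounded cheek against back, and 0.028 and 0.095 for Plin2 in cheek against abdomen and against back wounds. With each mouse left out, wound values ranged from -0.13 to 0.17 for Elovl3 in abdomen and -0.10 to 0.13 for Far2 in back. In unwounded skin, back against abdomen ranged from -0.076 to 0.26 for Awat2. Cheek against abdomen ranged from -0.23 to 0.23 for Elovl3, -0.47 to 0.16 for Mc5r, -0.17 to 0.10 for Plin2 and -0.22 to 0.10 for Soat1, and cheek against back from -0.034 to 0.24 for Awat2, -0.050 to 0.23 for Far2 and -0.15 to 0.21 for Fasn. In wounds, back against abdomen ranged from -0.11 to 0.19 for Awat2 and -0.081 to 0.042 for Plin2, cheek against abdomen from -0.086 to 0.037 for Plin2 and -0.12 to 0.047 for Soat1, and cheek against back from -0.11 to 0.11 for Dgat2 and -0.041 to 0.056 for Plin2.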
